A study of Mus musculus with 18 samples.

Results

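The genes of potassium channels, their pore subunits and their accessory subunits, were followed through the first 72 h of a myocardial infarction in the mouse. They were taken as every gene of the deposited count table whose mouse symbol begins with Kcn, followed by a letter or letters and a number, with a mean of at least 5 counts over the 18 libraries. The symbol matched 91 of 30583 genes, and 58 of these reached the mean of 5 counts; the other 33 are described in the closing section. The member with the lowest mean was Kcng4, at 5.28 counts, and the gene with the highest mean that stayed outside was Kcnk4, at 3.83 counts. Of the 58 genes, 56 are annotated as protein coding, and Kcnd3os and Kcnq1ot1 are transcripts from the opposite strand of a channel gene. Kcnj4 was too low for the test, so 57 of the 58 were tested.

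RNA was selected for poly(A) and sequenced from the left ventricle of 12-week-old male C57BL/6JR mice, in 6 groups of 3 libraries. In 5 groups the left anterior descending coronary artery was tied, and tissue was taken later, after 10 min or after 1, 6, 24 or 72 h; in the sham group the suture was passed under the artery without a knot. Each library came from 1 mouse, 18 mice in all, and the 6 groups share strain, sex and age, with no gene altered. Per the labels the tissue was myocardium of the infarcted ventricle, and the labels also give cardiomyocytes as the cell type, although no step that separates cells is described. The series, by its title, follows gene expression and DNA methylation over the progress of an infarction; DNA methylation was not analysed here. 

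Potassium channels let potassium leave the cell and so end each action potential and set the resting potential. Voltage-gated channels (Kv) open on depolarisation: those of the transient outward current start repolarisation in the mouse ventricle, and delayed rectifiers complete it. Inward rectifiers (Kir) hold the resting potential, couple to muscarinic receptors through G proteins, or close when ATP binds. Tandem-pore channels carry background current, and calcium-activated channels open when calcium rises inside the cell. Many of these channels need accessory subunits, such as KChIP, Kv beta and KCNE proteins, to reach the membrane or to gate normally. Loss of repolarising current after infarction is a textbook feature of the injured ventricle and of its arrhythmias. Channels of the calcium-activated and tandem-pore families also occur in immune cells and fibroblasts, where they set the driving force for calcium entry.

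Libraries held 18199172 to 25062351 counts. Levels below are TMM-scaled CPM (counts per 1e6 counts), in the order of replicates 1, 2 and 3, and changes are log2 fold changes from edgeR with their standard errors (SE). A gene was called at a Benjamini-Hochberg adjusted p under 0.05 over all 16311 genes tested. Marker genes of several cell types moved strongly with time. The summed level of 10 cardiomyocyte markers, such as Myh6 and Tnnt2, was 67181 ± 2934 CPM in sham (SD, n = 3), 61667 ± 6628 CPM at 6 h, 38020.0 ± 8434 CPM at 24 h and 18279 ± 3029 CPM at 72 h, and 10 of 10 were called lower at 72 h. Over the same groups 7 monocyte and macrophage markers summed to 213 ± 15.1, 263 ± 58.9, 612 ± 117 and 3169 ± 399.5 CPM, and 7 of 7 were called higher at 72 h. The 6 fibroblast markers summed to 695 ± 38.8 CPM in sham and 10805 ± 1341 CPM at 72 h. Replicate 3 at 24 h stood apart from the other libraries of its group, with 28281 CPM of cardiomyocyte markers against 42918 and 42861 CPM, and 693 CPM of neutrophil markers against 162 and 39.8 CPM. Replicate 1 at 6 h held 687 CPM of neutrophil markers against 255 and 93.4 CPM, and it alone held the atrial markers Myl7, Sln and Myl4 at 49.3, 42.6 and 59.1 CPM. In the other libraries of all groups these were at most 1.10, 0.474 and 2.62 CPM. In whole tissue, fewer cells of a type and less RNA per cell cannot be told apart.

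Promoter sequences were taken from RefSeq (GRCm38.p6) as windows of 300 bases, from 250 before to 50 after each annotated start, and 42 of the 58 genes had an entry. Shown here, 5′ to 3′, are the 250 bases before the start of 4 genes that the results turn on: Kcnn4 and Kcnk13, which had the largest rises at 72 h, Kcnip2, which fell among the most, and Kcnj2, the 1 gene that fell at 72 h with a match to a motif searched. Capitals mark a CACGTG match. None of these 4 stretches overlaps an exon of GENCODE M21.
Kcnn4 (chr7:24370013-24370262, plus strand): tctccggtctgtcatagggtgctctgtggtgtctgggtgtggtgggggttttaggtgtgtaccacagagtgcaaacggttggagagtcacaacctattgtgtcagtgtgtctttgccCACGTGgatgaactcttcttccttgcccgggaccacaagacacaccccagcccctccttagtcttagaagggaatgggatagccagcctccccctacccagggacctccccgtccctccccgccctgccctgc
Kcnk13 (chr12:99964249-99964498, plus strand): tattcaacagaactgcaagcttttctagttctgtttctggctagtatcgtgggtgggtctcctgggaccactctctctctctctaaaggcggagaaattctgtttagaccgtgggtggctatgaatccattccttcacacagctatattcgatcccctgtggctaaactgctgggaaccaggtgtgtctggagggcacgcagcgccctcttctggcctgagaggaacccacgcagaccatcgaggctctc
Kcnip2 (chr19:45816064-45816313, minus strand): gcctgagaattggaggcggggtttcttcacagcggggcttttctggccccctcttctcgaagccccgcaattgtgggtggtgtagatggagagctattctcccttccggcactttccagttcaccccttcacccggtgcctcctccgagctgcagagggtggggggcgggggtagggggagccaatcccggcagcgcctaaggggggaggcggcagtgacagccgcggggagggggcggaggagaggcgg
Kcnj2 (chr11:111065914-111066163, plus strand): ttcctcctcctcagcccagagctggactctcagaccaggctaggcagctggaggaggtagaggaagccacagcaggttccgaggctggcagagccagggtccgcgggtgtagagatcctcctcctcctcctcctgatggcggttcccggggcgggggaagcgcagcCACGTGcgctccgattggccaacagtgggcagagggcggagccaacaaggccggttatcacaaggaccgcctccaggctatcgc

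Motifs were searched on both strands as letters: TGANTCA (AP-1), TGACGTCA (CRE, the cyclic AMP response element) and CACGTG (E-box, read by the clock factors and by MYC). No motif contains another. TGANTCA was found for 3 of the 42 genes with an entry (Kcne3, Kcnip3 and Kcnk2), where 8.97% of all 27025 genes with a window had it. TGACGTCA was found for 0 of the 42 (2.03% of all genes), and CACGTG for 5 (Kcnab1, Kcne4, Kcnj2, Kcnk5 and Kcnn4; 8.09% of all genes). Of the 11 genes with an entry that rose at 72 h, 3 held CACGTG, and of the 17 that fell, 1 did. Counted over windows in place of genes, the shares were 7.81%, 1.79% and 7.15% of 32851 windows. A match is a description of the letters only.

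The first comparison asked how many potassium channel genes were called against sham, time by time. At 72 h most of them were: 28 of 57 fell and 14 rose, where 32.2% of all genes tested were called lower and 34.2% higher, and the median change of the 57 was -0.80 against 0.03 over all genes. At 24 h, 22 fell and 10 rose (all genes 20.2% lower, 23.7% higher; medians -0.46 and 0.01). At 6 h, 10 fell and 7 rose (all genes 12.2% lower, 16.3% higher; medians -0.15 and -0.01). Over the 5 times, 30 genes were only ever called lower, 15 only ever higher, 2 in both directions (Kcnj14 and Kcnk2), and 10 were not called. Of the 30, 8 were first called at 6 h, 16 at 24 h and 6 at 72 h. The same counts of courses over all genes are not given here, so these cannot be set against a share of all genes. The 6 h counts were the least stable: 2 genes rose and 7 fell without sham replicate 1, and 4 rose and 7 fell without replicate 1 at 6 h. Without replicate 3 at 24 h, 8 genes rose and 17 fell at 24 h. The split also depended on scaling, since scaling to library totals shifted the all-gene median by time, with -0.12 for 6 h, 0.20 for 24 h and 0.61 for 72 h. With it 5 rose and 15 fell at 6 h, 11 rose and 14 fell at 24 h, and 19 rose and 24 fell at 72 h. The shares of all genes called with library totals are not given, here or below, and the shares under TMM scaling do not apply to these counts. Directions below are relative to TMM scaling.

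**Figure D1:**
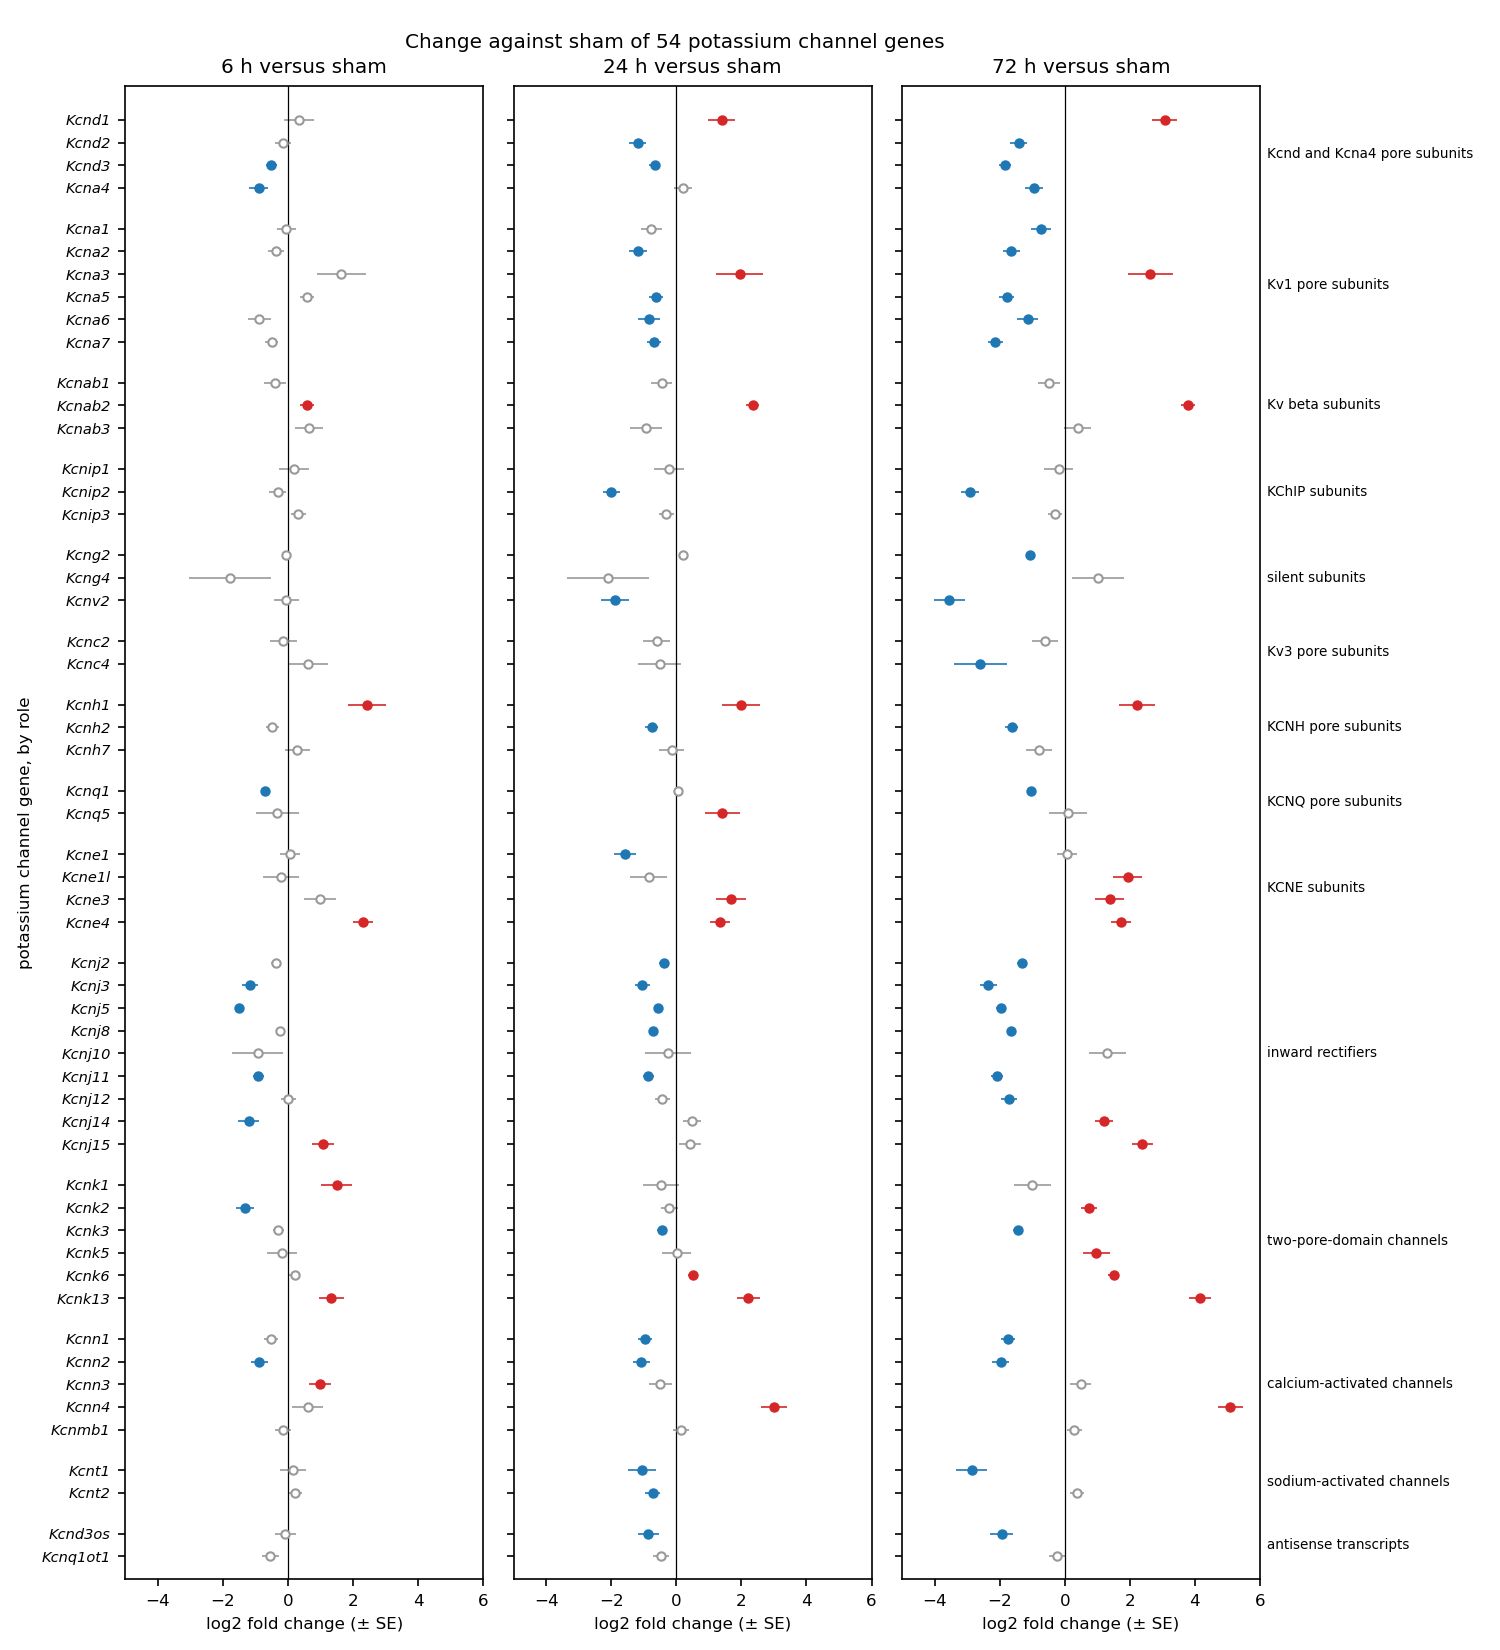
Log2 fold change against sham (x axis, ± SE) of 54 of the 57 potassium channel genes tested, grouped by role (y axis), at 6 h, 24 h and 72 h; filled red points were called higher, filled blue points called lower (edgeR adjusted p under 0.05), and open grey points were not called. From left to right the blue points become more numerous (9, 21 and 25), and at 72 h they fill most rows of the Kv and inward rectifier groups.

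At 10 min and at 1 h, 0 of the 57 genes were called by edgeR's quasi-likelihood test (0.0736% of all genes at 10 min, 0.294% at 1 h); 3 genes at 10 min and 6 at 1 h had an unadjusted p under 0.05, where 1144 and 899 of all 16311 genes did. The largest fitted changes of the 57 at both times were those of Kcnh1 (log2 fold changes of 1.80, SE 0.61, and 2.04, SE 0.60), which had 2 or 3 counts in each sham library and is described in the closing section. The lowest p at 10 min was that of Kcna1, a Kv pore subunit, at 0.859, 1.14 and 1.47 CPM in sham and 2.43, 2.94 and 2.62 CPM at 10 min (a log2 fold change of 1.20, SE 0.28, adjusted p = 0.188). All 3 libraries at 10 min lay above the 3 sham libraries. Kcna1 was called at 10 min by DESeq2 (1 gene called) and, with Kcnd2, when only the 2 groups compared were fitted (2 genes called). At 1 h, the same reduced fit called 3 genes, Kcne4 and Kcnj12 higher and Kcnj2 lower. Kcne4, an inhibitory KCNE subunit, measured 4.25, 3.89 and 3.69 CPM in sham and 8.79, 8.71 and 6.76 CPM at 1 h (a log2 fold change of 1.04, SE 0.32, adjusted p = 0.459), with no overlap between the groups. Kcna1 and Kcnh1 were named after their values were seen.

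The pore subunits of the transient outward current are Kcnd1, Kcnd2, Kcnd3 and Kcna4. At 72 h 3 fell and 1 rose (all genes: 32.2% lower, 34.2% higher). Kcnd2 (ENSMUSG00000060882, chromosome 6, 21215503 to 21729805), a main pore subunit of the fast component in mouse ventricle, measured 10.3, 14.5 and 12.9 CPM in sham, 10.01, 14.6 and 9.16 CPM at 6 h, 5.91, 6.76 and 3.82 CPM at 24 h and 6.81, 4.20 and 3.15 CPM at 72 h. The sham and 6 h libraries overlapped, and all 24 h and 72 h libraries lay below sham (24 h: a log2 fold change of -1.18, SE 0.26, adjusted p = 0.00187; 72 h: a log2 fold change of -1.41, SE 0.26, adjusted p = 1.46e-04). Kcnd3 (ENSMUSG00000040896, chromosome 3, 105452330 to 105674002), the other pore subunit of this component, measured 15.4, 13.2 and 14.9 CPM in sham and 4.10, 4.48 and 3.63 CPM at 72 h (a log2 fold change of -1.83, SE 0.17, adjusted p = 3.90e-08). It was already lower at 6 h (-0.51, SE 0.17), a call lost without sham replicates 1 or 3 or 6 h replicates 1, 2 or 3 (adjusted p up to 0.0936). Its exons share 165 bases with Kcnd3os on the other strand.

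Kcna4, the pore subunit of the slow component, fell, returned and fell again. It measured 2.88, 3.11 and 2.93 CPM in sham, 2.50, 0.909 and 1.44 CPM at 6 h, 3.93, 2.87 and 3.56 CPM at 24 h and 1.80, 1.71 and 1.11 CPM at 72 h. The 24 h libraries overlapped sham and were called higher than at 6 h (a log2 fold change of 1.11, SE 0.28, adjusted p = 0.00703), and the 72 h libraries were called lower than at 24 h (-1.16, SE 0.27) and than sham (a log2 fold change of -0.95, SE 0.27, adjusted p = 0.00515). The 6 h call against sham (-0.90, SE 0.29) was lost without sham replicates 1, 2 or 3 or 6 h replicates 2 or 3, and in the fit of sham and 6 h alone (adjusted p = 0.0724). The 72 h call was lost when libraries were scaled to their totals (log2 fold change -0.37, adjusted p = 0.220). Kcnd1, the family member with the lowest level in sham, rose: it measured 0.556, 0.207 and 0.400 CPM in sham, 0.691, 1.17 and 1.24 CPM at 24 h and 3.22, 3.11 and 3.60 CPM at 72 h (a log2 fold change of 3.07, SE 0.38, adjusted p = 1.05e-06). The 24 h call of Kcnd1 (1.39, SE 0.41) was lost without sham replicate 2.

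The KChIP genes encode calcium-binding subunits that carry Kcnd pores to the membrane. Of 3 tested, 1 fell and 0 rose at 72 h (all genes: 32.2% lower, 34.2% higher). Kcnip2 (ENSMUSG00000025221, chromosome 19, 45791839 to 45816061), whose loss removes the fast transient outward current in mice, measured 209, 204 and 213 CPM in sham and 164, 136 and 203 CPM at 6 h. It measured 75.4, 52.1 and 29.6 CPM at 24 h and 34.7, 20.4 and 28.2 CPM at 72 h. All 24 h and 72 h libraries lay below sham. The fitted level was 3.98-fold lower at 24 h and 7.51-fold lower at 72 h (24 h: a log2 fold change of -1.99, SE 0.26, adjusted p = 4.45e-05; 72 h: a log2 fold change of -2.91, SE 0.27, adjusted p = 1.79e-07). All 6 h libraries also lay below sham, but that change, -0.31, SE 0.25, was not called. The change from 6 h to 24 h was called (-1.68, SE 0.26). Kcnip3 and Kcnip1 were not called against sham; at 72 h their changes were -0.30, SE 0.22 and -0.19, SE 0.44.

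The Kv beta genes, cytosolic subunits of Kv pores with an oxidoreductase fold, gave 1 riser among 3 at 72 h (all genes: 34.2% higher). Kcnab2 (ENSMUSG00000028931, chromosome 4, 152390742 to 152477871) measured 2.12, 1.71 and 1.82 CPM in sham, 7.77, 9.97 and 11.1 CPM at 24 h and 25.1, 27.7 and 25.4 CPM at 72 h, a rise of 13.8-fold (a log2 fold change of 3.79, SE 0.20, adjusted p = 3.04e-11). All 24 h and 72 h libraries lay above all sham libraries. The 6 h call of Kcnab2 (0.59, SE 0.21) was lost in 12 of 18 fits with 1 library fewer, those without sham replicates 1, 2 or 3, 10 min replicate 3, 1 h replicates 1, 2 or 3, 6 h replicate 2, 24 h replicate 2 or 72 h replicates 1, 2 or 3. Kcnab1, the Kv beta gene of smooth muscle and heart, was not called (72 h: -0.48, SE 0.32), and neither was Kcnab3.

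**Figure D2:**
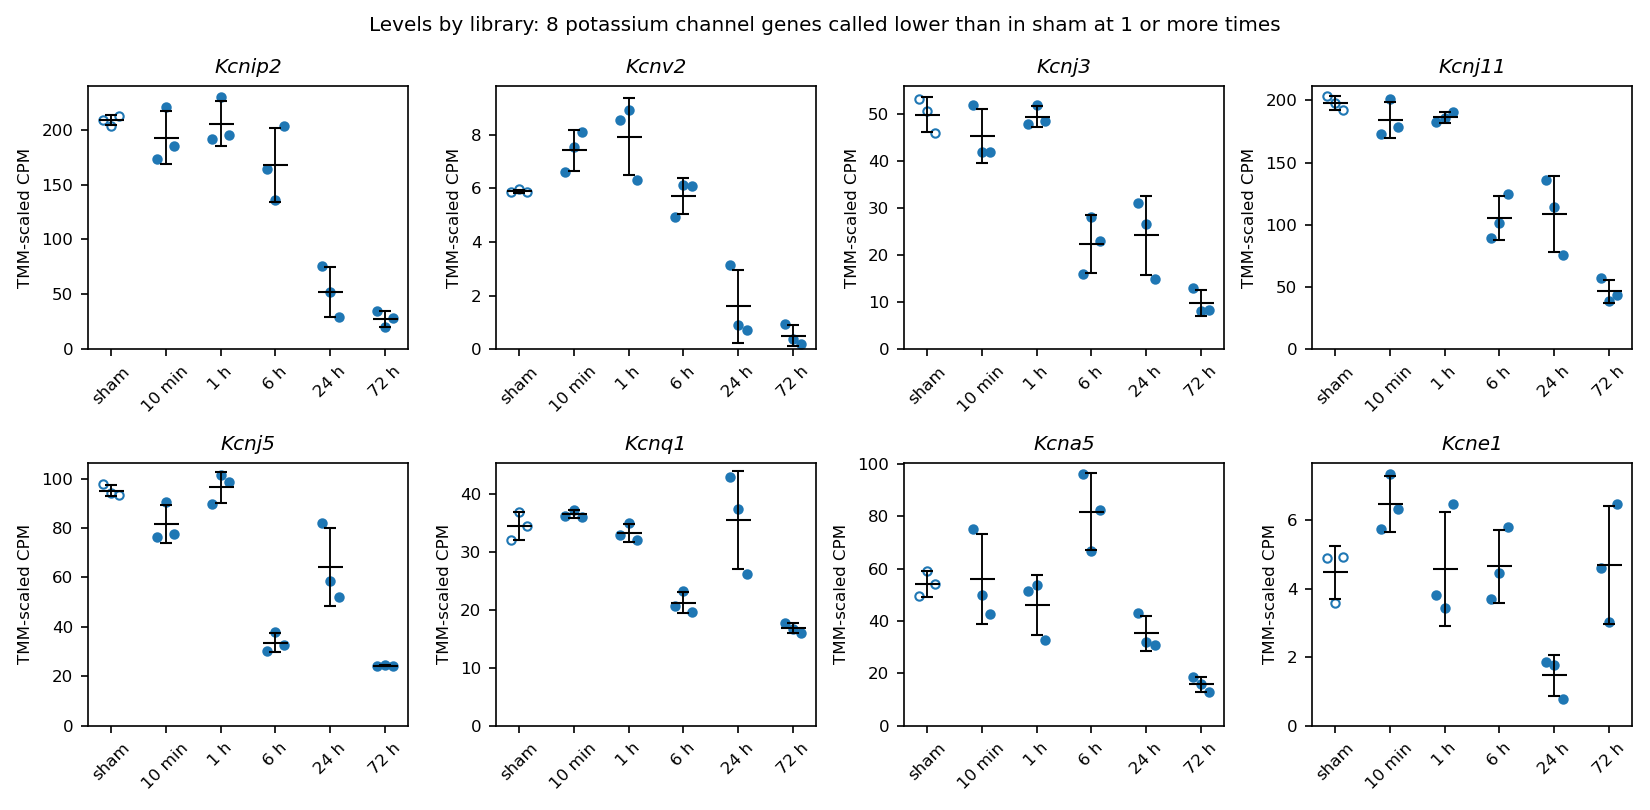
TMM-scaled CPM (y axes, from 0) of 8 potassium channel genes in each library, by group (x axes); open points are sham, filled points infarcted hearts, and bars the mean ± SD of 3 libraries. Kcnip2 and Kcnv2 had their lowest levels at 24 h and 72 h, Kcnj3, Kcnj11 and Kcnj5 were already low at 6 h, Kcnj5 and Kcnq1 were higher again at 24 h, and Kcne1 was low at 24 h only.

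Among the 6 Kv1 pore subunits other than Kcna4, 5 fell at 72 h and 1 rose (all genes: 32.2% lower, 34.2% higher). Kcna5 (ENSMUSG00000045534, chromosome 6, 126532551 to 126535412), a delayed rectifier pore of heart and vessels, measured 49.3, 59.2 and 54.1 CPM in sham, 96.01, 66.9 and 82.3 CPM at 6 h, 42.9, 31.98 and 30.7 CPM at 24 h and 18.7, 15.8 and 12.9 CPM at 72 h. The 6 h libraries all lay above sham, a difference that was not called (adjusted p = 0.0584). It passed with DESeq2 (adjusted p = 0.0296) and when only sham and 6 h were fitted (adjusted p = 0.0120). It also passed in edgeR with scaling to cardiomyocyte markers (log2 fold change 0.73, adjusted p = 0.0335). Replicate 1 at 6 h, the highest of the 3, was the library with atrial marker RNA. Without it the log2 fold change was 0.46 (adjusted p = 0.212) in place of 0.59. The summed atrial markers, mostly Nppa, had the same order over the 6 h libraries, at 542, 114 and 286 CPM. In replicates 2 and 3 the sum was nearly all Nppa, which stressed ventricles also express. The order of the sum is therefore not a measure of atrial tissue alone. The part of atrial tissue in the 6 h values was not tested. From 6 h to 24 h Kcna5 fell (a log2 fold change of -1.21, SE 0.23, adjusted p = 0.00122), and at 72 h it was below sham in all libraries (a log2 fold change of -1.78, SE 0.23, adjusted p = 5.03e-06). Its 24 h call against sham (-0.62, SE 0.22) was lost without sham replicates 2 or 3 or 24 h replicates 2 or 3. Kcna7, a pore found in striated muscle, changed by -2.13 on the log2 scale at 72 h (called lower), where it measured 2.21, 1.49 and 1.94 CPM against 8.34, 7.52 and 8.80 CPM in sham. Kcna2 (-1.64), Kcna6 (-1.14) and Kcna1 (-0.73) also fell at 72 h, the last with libraries that overlapped sham and with its call lost without sham replicates 2 or 3 or 72 h replicates 1 or 3.

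Kcna3, the Kv pore of lymphocytes and macrophages, was the Kv1 gene that rose. It measured 0.303, 0.207 and 0.311 CPM in sham, 0.820, 0.495 and 2.01 CPM at 24 h and 0.852, 2.95 and 1.40 CPM at 72 h. The 72 h libraries all lay above sham but varied widely among themselves (a log2 fold change of 2.63, SE 0.69, adjusted p = 0.00251; log2 fold change 2.01 without replicate 2). The 24 h call was lost without sham replicates 1, 2 or 3 or 24 h replicate 3, and 24 h replicate 3 also moved its size (log2 fold change 1.94, and 1.22 with adjusted p = 0.217 without it). Lymphocyte markers summed to at most 5.25 CPM in every library, and monocyte and macrophage markers moved as given above; the part of either in the level of Kcna3 was not tested.

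The silent subunits Kcnv2, Kcng2 and Kcng4 do not form channels alone and join other Kv pores. Kcnv2 and Kcng2 fell at 72 h. Kcnv2 (ENSMUSG00000047298, chromosome 19, 27322588 to 27337179) had the largest fall of all 57 genes: it measured 5.86, 5.96 and 5.86 CPM in sham, 4.95, 6.12 and 6.07 CPM at 6 h, 3.15, 0.920 and 0.722 CPM at 24 h and 0.946, 0.365 and 0.191 CPM at 72 h (a log2 fold change of -3.54, SE 0.47, adjusted p = 4.66e-06). The fitted level was 11.7-fold lower at 72 h. Replicate 1 was the highest of its group at 24 h and at 72 h. Without it the log2 fold changes were -2.84 at 24 h and -4.37 at 72 h, in place of -1.88 and -3.54. Kcng2 measured 113, 129.7 and 122 CPM in sham and 164, 137 and 118 CPM at 24 h, with libraries that overlapped, and 62.96, 51.9 and 59.3 CPM at 72 h, all below sham (a log2 fold change of -1.07, SE 0.12, adjusted p = 2.94e-07). Kcng4, with 0 counts in 3 libraries, was not called against sham.

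Among the Kv3 pores, Kcnc4 fell at 72 h, when it had 0 counts in 2 of the 3 libraries, and Kcnc2 was not called. Kcnc4 measured 0.404, 0.363 and 0.267 CPM in sham and 0, 0.152 and 0 CPM at 72 h, so the size of its fall depends on 1 library (log2 fold change -2.60, and -5.90 without replicate 2). Among the KCNH pores, Kcnh2 (ENSMUSG00000038319, chromosome 5, 24319589 to 24351604), the pore of the rapid delayed rectifier, fell from 169, 156 and 157 CPM in sham to 116, 109 and 60.8 CPM at 24 h and 63.03, 47.9 and 45.2 CPM at 72 h (a log2 fold change of -1.63, SE 0.21, adjusted p = 2.68e-06). All 24 h and 72 h libraries lay below sham. Kcnh1, a pore of brain and of dividing cells, rose from 0.152, 0.104 and 0.133 CPM in sham to 0.834, 0.813 and 0.533 CPM at 6 h (2.43, SE 0.57) and 0.631, 0.487 and 0.764 CPM at 72 h (2.22, SE 0.56), at levels under 1 CPM throughout. Its 24 h call was lost without 24 h replicate 3 (log2 fold change 1.33, adjusted p = 0.0841, in place of 1.99). Kcnh7 was not called.

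Among the KCNQ pores, Kcnq1 (ENSMUSG00000009545, chromosome 7, 143106362 to 143427042), the pore of the slow delayed rectifier, measured 32.2, 36.9 and 34.5 CPM in sham, 20.7, 23.3 and 19.7 CPM at 6 h, 42.99, 37.4 and 26.2 CPM at 24 h and 17.8, 16.7 and 16.01 CPM at 72 h. The 6 h and 72 h libraries all lay below sham (6 h: a log2 fold change of -0.70, SE 0.13, adjusted p = 7.42e-04; 72 h: a log2 fold change of -1.04, SE 0.13, adjusted p = 1.26e-06), the 24 h libraries overlapped sham, and the rise from 6 h to 24 h was called (0.74, SE 0.13). Its exons share 121 bases with Kcnq1ot1. Kcnq5, at 1.27 CPM or less in all libraries, was called higher at 24 h only (1.41, SE 0.54), a call lost without sham replicates 1 or 3 or 24 h replicate 2 (log2 fold change 0.81 and adjusted p = 0.274 without 24 h replicate 2).

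The KCNE genes encode single-span subunits that reshape the gating of KCNQ and other pores. At 72 h 3 of 4 rose (all genes: 34.2% higher). Kcne1 (ENSMUSG00000039639, chromosome 16, 92345982 to 92359468), the partner of Kcnq1 in the slow delayed rectifier, was called lower than sham at 24 h and not at the other times. It measured 4.90, 3.58 and 4.93 CPM in sham, 3.70, 4.45 and 5.81 CPM at 6 h, 1.86, 1.77 and 0.773 CPM at 24 h and 4.61, 3.01 and 6.46 CPM at 72 h. The 24 h libraries all lay below sham (a log2 fold change of -1.58, SE 0.33, adjusted p = 0.00101) and below the 72 h libraries (72 h against 24 h: a log2 fold change of 1.65, SE 0.33, adjusted p = 3.63e-04), which overlapped sham. Kcne4 (ENSMUSG00000047330, chromosome 1, 78816758 to 78820028), an inhibitory partner of Kcnq1 and Kv1 pores, rose at 6 h, when it was highest. It measured 4.25, 3.89 and 3.69 CPM in sham, 29.3, 15.1 and 14.4 CPM at 6 h, 8.42, 7.68 and 14.02 CPM at 24 h and 11.3, 14.3 and 13.8 CPM at 72 h. All libraries from 6 h on lay above sham (6 h: a log2 fold change of 2.31, SE 0.32, adjusted p = 8.38e-05), and replicate 1 at 6 h, the library with most neutrophil and atrial marker RNA of its group, was the highest.

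Kcne1l, also called Kcne5, rose at 72 h only, from 0.607, 0.207 and 0.355 CPM in sham to 1.48, 1.16 and 1.88 CPM (a log2 fold change of 1.93, SE 0.45, adjusted p = 8.23e-04). Kcne3, a partner of Kcnq1 in epithelia, rose from 0.152, 0.363 and 0.666 CPM in sham to 1.29, 1.10 and 1.55 CPM at 24 h (1.69, SE 0.46; 2.32 without sham replicate 3) and 1.04, 1.19 and 0.923 CPM at 72 h (1.38, SE 0.46; 2.01 without sham replicate 3, and not called without sham replicate 1). All 24 h and 72 h libraries of Kcne3 lay above sham. Kcne2 was among the genes left out for low counts.

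Among 9 inward rectifiers tested, 6 fell and 2 rose at 72 h (all genes: 32.2% lower, 34.2% higher). The pair that forms the channel of the muscarinic, G protein-coupled current, Kcnj3 and Kcnj5, fell early. Kcnj5 (ENSMUSG00000032034, chromosome 9, 32314707 to 32344350) measured 97.7, 94.3 and 93.4 CPM in sham, 30.3, 38.04 and 32.5 CPM at 6 h, 81.9, 58.4 and 52.1 CPM at 24 h and 24.3, 24.6 and 24.2 CPM at 72 h. The fitted level at 6 h was 2.82-fold lower than sham (a log2 fold change of -1.498, SE 0.13, adjusted p = 9.61e-07), the 24 h libraries lay between those of 6 h and sham without overlap (24 h against 6 h: a log2 fold change of 0.93, SE 0.13, adjusted p = 9.46e-05), and the 72 h libraries, close together, were the lowest (a log2 fold change of -1.96, SE 0.13, adjusted p = 7.66e-10). Kcnj3 (ENSMUSG00000026824, chromosome 2, 55435970 to 55598145) measured 53.2, 50.5 and 45.8 CPM in sham, 15.97, 28.1 and 23.1 CPM at 6 h, 30.99, 26.7 and 14.8 CPM at 24 h and 13.03, 8.13 and 8.34 CPM at 72 h (a log2 fold change of -2.34, SE 0.25, adjusted p = 6.34e-07). Unlike the values of Kcnj5, its 6 h and 24 h libraries overlapped (24 h against 6 h: 0.11, SE 0.24, adjusted p = 0.765). Whether the genes differ in this was not tested. Atria are rich in this channel. Of the 4 atrial markers, Myl7 measured 0.0506, 0.363 and 0.133 CPM in sham, 49.3, 0.0478 and 0 CPM at 6 h and 1.10, 0.152 and 0.445 CPM at 72 h. Sln measured 0, 0.156 and 0.311 CPM in sham, 42.6, 0 and 0 CPM at 6 h and 0 CPM in all 3 libraries at 72 h. Myl7 and Myl4 were called higher at 6 h, but only replicate 1 lay above all sham libraries. Nppa, which stressed ventricles also express, averaged 145 CPM in sham, 262 CPM at 6 h and 608 CPM at 72 h. In replicate 1 at 6 h, Kcnj3 and Kcnj5 were the lowest of their group. Without that library both calls at 6 h held, with log2 fold changes of -0.96 for Kcnj3 (adjusted p = 0.0135) and -1.43 for Kcnj5 (adjusted p = 7.01e-06). The exons of Kcnj3 share 1621 bases with a gene on the other strand.

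The ATP-sensitive channel opens when ATP falls, as in ischaemia, and its ventricular pore is Kcnj11 while Kcnj8 is its vascular pore. Kcnj11 (ENSMUSG00000096146, chromosome 7, 46093953 to 46100764) measured 203, 198 and 192 CPM in sham, 89.6, 102 and 124 CPM at 6 h, 136, 114 and 75.8 CPM at 24 h and 57.1, 38.9 and 43.4 CPM at 72 h. All libraries from 6 h on lay below sham, and the 72 h level was 4.25-fold lower (6 h: a log2 fold change of -0.91, SE 0.17, adjusted p = 9.38e-04; 72 h: a log2 fold change of -2.09, SE 0.18, adjusted p = 1.64e-08). Kcnj8 (ENSMUSG00000030247, chromosome 6, 142564837 to 142571614) measured 82.7, 87.95 and 81.4 CPM in sham, 53.5, 54.8 and 45.8 CPM at 24 h and 31.7, 25.6 and 23.2 CPM at 72 h (a log2 fold change of -1.65, SE 0.12, adjusted p = 2.51e-09), with all 24 h and 72 h libraries below sham. The change of Kcnj8 at 6 h was -0.24, SE 0.12 and was not called. The 7 markers of pericytes and smooth muscle, the cells in which Kcnj8 is best known, summed to 1049 to 1124 CPM in sham and 786 to 987 CPM at 72 h. They did not move as 1, since 4 were called lower and 2 higher at 72 h (all genes: 32.2% lower, 34.2% higher). The part of these cells in the level of Kcnj8 was not tested.

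Kcnj2 and Kcnj12, the strong inward rectifiers that hold the ventricular resting potential, were lower at 72 h. With all 18 libraries fitted, Kcnj2 was first called lower than sham at 24 h and Kcnj12 at 72 h. The fit of sham and 1 h alone already called Kcnj2 lower at 1 h, so the start of its fall is not settled. Kcnj2 (ENSMUSG00000041695, chromosome 11, 111066164 to 111076821) measured 45.7, 39.1 and 41.4 CPM in sham, 37.9, 29.04 and 30.3 CPM at 24 h and 16.5, 18.5 and 15.3 CPM at 72 h (a log2 fold change of -1.33, SE 0.15, adjusted p = 3.49e-07). Its 24 h call (-0.38, SE 0.15) was lost in 11 of 18 fits with 1 library fewer, those without sham replicates 1, 2 or 3, 10 min replicates 2 or 3, 1 h replicates 1 or 2, 6 h replicate 3, 24 h replicates 2 or 3 or 72 h replicate 1. Kcnj12 measured 32.2, 31.9 and 32.6 CPM in sham, 37.3, 17.3 and 17.2 CPM at 24 h, with 1 library above sham and 2 below, and 10.3, 9.16 and 9.93 CPM at 72 h (a log2 fold change of -1.72, SE 0.24, adjusted p = 1.03e-05). Kcnj15, a rectifier best known from kidney, rose from 1.67, 1.30 and 1.73 CPM in sham to 4.77, 2.58 and 2.66 CPM at 6 h and 7.26, 9.26 and 8.02 CPM at 72 h (a log2 fold change of 2.38, SE 0.32, adjusted p = 3.10e-06), with 24 h libraries that overlapped sham. Its 6 h call (1.08, SE 0.33) was lost without sham replicates 1 or 2 or 6 h replicate 1. Kcnj14 was lower at 6 h and higher at 72 h and is described in the closing section, and Kcnj10 was not called against sham.

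**Figure D3:**
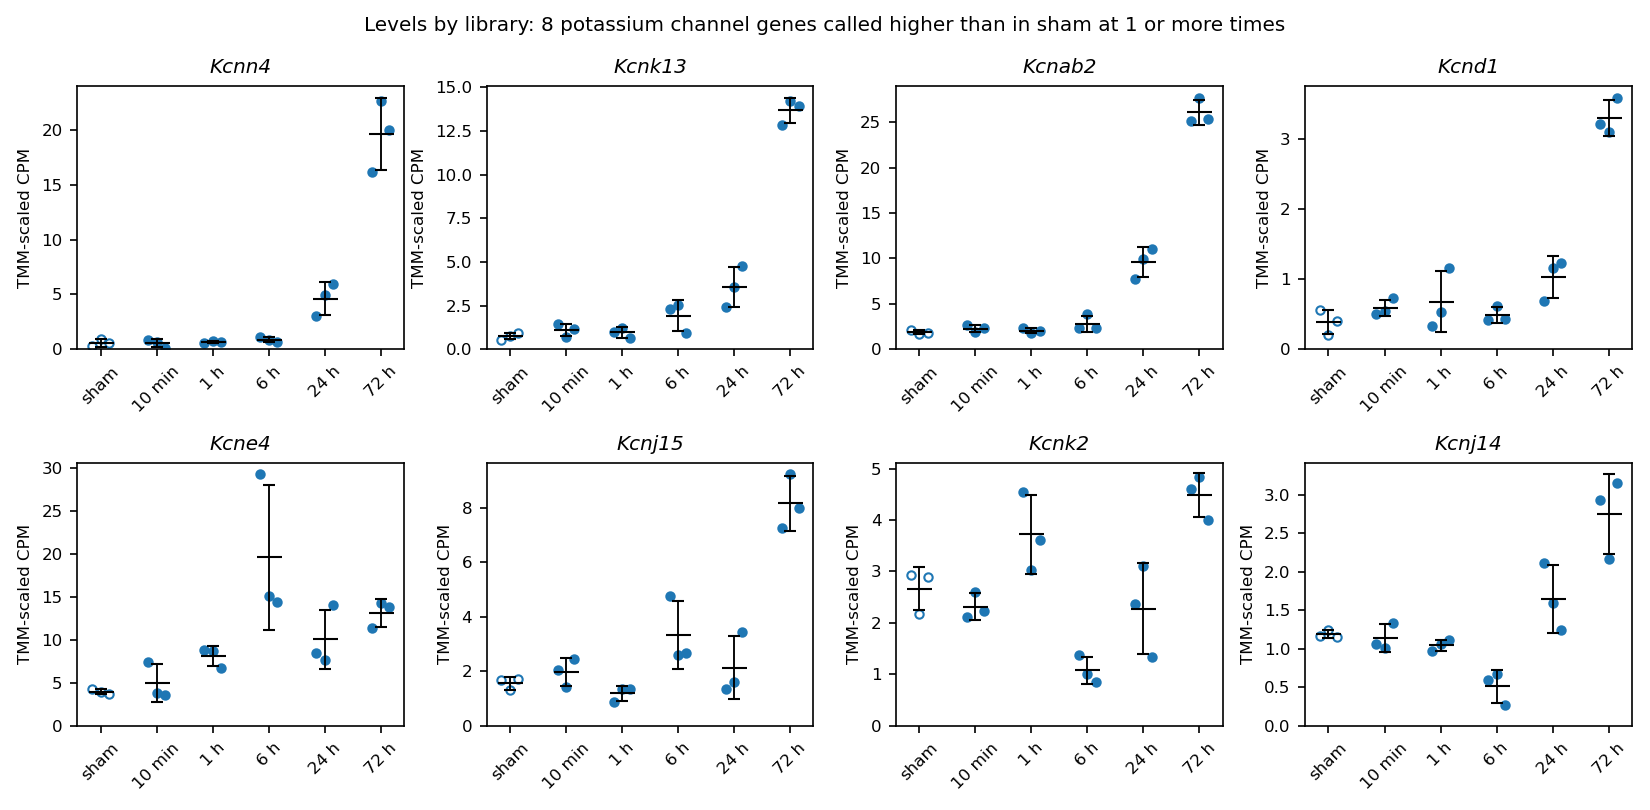
TMM-scaled CPM (y axes, from 0) of 8 potassium channel genes in each library, by group (x axes); open points are sham, filled points infarcted hearts, and bars the mean ± SD of 3 libraries. Kcnn4, Kcnk13, Kcnab2 and Kcnd1 rose at 24 h and further at 72 h, Kcne4 was highest at 6 h, and Kcnk2 and Kcnj14 were lowest at 6 h and highest at 72 h.

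Of 6 tandem-pore channels tested, 4 rose and 1 fell at 72 h (all genes: 34.2% higher, 32.2% lower). Kcnk3 (ENSMUSG00000049265, chromosome 5, 30588170 to 30625271), an acid-sensitive background channel and, per kilobase, the most abundant potassium channel RNA in sham, was the 1 that fell. It measured 262, 261 and 249.7 CPM in sham, 242, 205 and 121 CPM at 24 h and 107, 88.1 and 90.7 CPM at 72 h (a log2 fold change of -1.44, SE 0.17, adjusted p = 4.92e-07). Its 24 h libraries ran from 121 CPM in replicate 3, the library with the fewest cardiomyocyte marker counts, to 242 CPM in replicate 1. The 24 h call (-0.44, SE 0.16) was lost without replicate 3 (log2 fold change -0.20, adjusted p = 0.139) and without sham replicate 1, 2 or 3.

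Kcnk13 (ENSMUSG00000045404, chromosome 12, 99964499 to 100062682), a background channel described in microglia and other myeloid cells, measured 0.556, 0.778 and 0.933 CPM in sham, 2.32, 2.54 and 0.905 CPM at 6 h, 2.42, 3.54 and 4.74 CPM at 24 h and 12.9, 14.2 and 13.9 CPM at 72 h. All 24 h and 72 h libraries lay above sham, and the fitted level was 17.9-fold higher at 72 h (a log2 fold change of 4.16, SE 0.35, adjusted p = 8.89e-09). The 6 h libraries overlapped sham, and the 6 h call (1.33, SE 0.38) was lost without sham replicate 1 or 6 h replicates 1 or 2. Kcnk6, a channel of endolysosomes and vessels, rose from 6.82, 7.78 and 8.44 CPM in sham to 9.45, 10.3 and 13.4 CPM at 24 h and 21.9, 20.8 and 22.9 CPM at 72 h (a log2 fold change of 1.51, SE 0.16, adjusted p = 2.08e-07). The 24 h call (0.52, SE 0.17) was lost without sham replicate 1 (adjusted p = 0.0759) and without replicate 3 at 24 h (adjusted p = 0.102). Kcnk5 rose at 72 h (0.97, SE 0.41), a call lost without sham replicates 1, 2 or 3 or 72 h replicates 1, 2 or 3. Kcnk1 rose at 6 h only (1.497, SE 0.46), a call lost without sham replicate 1 or 6 h replicate 2. Kcnk2, the mechanosensitive channel also known as TREK, was lower at 6 h and higher at 72 h and is described in the closing section.

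Among 5 calcium-activated genes, 2 fell and 1 rose at 72 h (all genes: 32.2% lower, 34.2% higher). Kcnn4 (ENSMUSG00000054342, chromosome 7, 24370263 to 24386690), the intermediate-conductance channel of macrophages, lymphocytes and proliferating fibroblasts, had the largest rise of all 57 genes. It measured 0.253, 0.933 and 0.533 CPM in sham, 1.13, 0.813 and 0.692 CPM at 6 h, 3.02, 4.92 and 5.93 CPM at 24 h and 16.2, 22.7 and 19.98 CPM at 72 h. The 6 h libraries overlapped sham, and all 24 h and 72 h libraries lay above it. The fitted level was 8.02-fold higher at 24 h and 34.1-fold higher at 72 h (24 h: a log2 fold change of 3.00, SE 0.40, adjusted p = 2.19e-05; 72 h: a log2 fold change of 5.09, SE 0.39, adjusted p = 4.55e-09). The small-conductance pores Kcnn1 and Kcnn2 fell: Kcnn2 measured 16.1, 18.9 and 19.6 CPM in sham and 5.77, 3.87 and 4.33 CPM at 72 h (a log2 fold change of -1.97, SE 0.26, adjusted p = 5.10e-06), and Kcnn1 20.1, 20.4 and 21.1 CPM and 8.14, 5.12 and 5.35 CPM (a log2 fold change of -1.73, SE 0.21, adjusted p = 1.53e-06). All 72 h libraries of both genes lay below sham. The 6 h call of Kcnn2 (-0.87, SE 0.26) was lost without sham replicate 3 or 6 h replicates 1 or 3. Kcnn3 was called higher at 6 h only (0.98, SE 0.33), a call lost without sham replicates 1 or 2 or 6 h replicates 1 or 2. Kcnmb1, the smooth muscle beta subunit of the large-conductance channel, was not called at any time (0.29, SE 0.23 at 72 h), and Kcnma1, that channel's pore, was among the genes left out, with a mean of 3.11 counts.

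The rise of Kcnn4, Kcnk13, Kcnab2, Kcnd1, Kcna3 and Kcnj15 at 72 h came in libraries where monocyte and macrophage markers summed to 2829 to 3609 CPM against 202 to 230.1 CPM in sham, fibroblast markers to 9779.8 to 12322 CPM against 662 to 738 CPM, and neutrophil markers to 56.3 to 69.7 CPM against 2.80 to 4.36 CPM. None of the 7 macrophage or 6 fibroblast markers was at 0 in all 3 libraries of any group. At 6 h the neutrophil markers summed to 93.4 to 687 CPM. Of the 6 genes, Kcnk13, Kcnab2 and Kcnj15 were called higher than sham at that time, and Kcnn4, Kcnd1 and Kcna3 were not. Without replicate 1 at 6 h, the library with most neutrophil marker RNA of its group, Kcnk13 (edgeR adjusted p = 0.0562) and Kcnj15 (edgeR adjusted p = 0.146) lost that call. Kcnk13 also lost it without 6 h replicate 2 (edgeR adjusted p = 0.0642) or sham replicate 1 (edgeR adjusted p = 0.0609). Kcnj15 also lost it without sham replicates 1 or 2, and Kcnab2 in 12 of the 18 fits with 1 library fewer. The part of these cells in the rises was not tested.

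The sodium-activated pore Kcnt1 fell from 2.17, 1.30 and 1.60 CPM in sham to 0.221, 0.335 and 0.127 CPM at 72 h (a log2 fold change of -2.85, SE 0.47, adjusted p = 3.07e-05). The 24 h call (-1.05, SE 0.42) was lost without sham replicates 1 or 3, 10 min replicates 1, 2 or 3, 1 h replicates 2 or 3, 6 h replicate 1, 24 h replicates 1 or 2 or 72 h replicate 1. Kcnt2 was called lower at 24 h only (-0.72, SE 0.23), a call lost without sham replicate 1 or 24 h replicate 3. Of the antisense transcripts, Kcnd3os measured 0.961, 0.778 and 0.933 CPM in sham and 0.252, 0.213 and 0.223 CPM at 72 h (a log2 fold change of -1.93, SE 0.35, adjusted p = 8.53e-05). Kcnq1ot1, which silences imprinted neighbours of Kcnq1, was not called at 6, 24 or 72 h (-0.24, SE 0.25 at 72 h). How the authors' counting used strand is not given in the sources used here, so reads of Kcnd3os and Kcnd3, or of Kcnq1ot1 and Kcnq1, cannot be told apart where their exons overlap.

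The second comparison asked when the changes came, from one time to the next. Between 1 h and 6 h, 14 genes fell and 3 rose (all genes: 10.0% lower, 14.5% higher). Kcnk2 (-1.80), Kcnj5 (-1.52) and Kcna6 (-1.42) had the largest falls, and Kcnj15, Kcne4 and Kcna5 rose, with log2 fold changes of 1.49, 1.27 and 0.83. Only 10 genes were called in this interval when replicate 2 or 3 of the 1 h group, or replicate 1 of the 6 h group, was left out. Between 6 h and 24 h, 14 fell and 9 rose (all genes: 13.7% lower, 14.2% higher). Those that fell included Kcnv2 (-1.83), Kcnip2 (-1.68), Kcne1 (-1.64), Kcna5 (-1.21) and Kcnd2 (-1.03), and those that rose included 5 that were called lower at 6 h than in sham: Kcnj5, Kcnq1, Kcna4, Kcnk2 and Kcnj14. Only 9 genes were called when just the 6 h and 24 h libraries were fitted, and with scaling to library totals 13 rose and 9 fell. Between 24 h and 72 h, 25 fell and 15 rose (all genes: 26.1% lower, 24.4% higher), or 18 and 17 with scaling to library totals. Kcnd2, by contrast, changed by -0.23, SE 0.27 and was not called. Set directly against 6 h, 27 genes were lower and 12 higher at 72 h, where 63.0% of all genes were called in either direction.

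Levels per kilobase of the gene length implied by the deposited FPKM allow genes to be ranked against each other. In sham the order was Kcnk3 at 64.8 ± 1.72 CPM per kilobase, Kcnip2 at 59.99 ± 1.33, Kcnj11 at 53.7 ± 1.53 and Kcng2 at 40.7 ± 2.76. Next came Kcnh2 at 33.1 ± 1.52 and Kcnj8 at 32.97 ± 1.36, which did not differ beyond their spread. Kcnj5 (20.3 ± 0.483) and Kcna5 (18.9 ± 1.73) followed, and 35 of the 58 genes were under 1 CPM per kilobase. At 72 h Kcnk3 still had rank 1, at 23.95 ± 2.56, Kcng2 had rank 2, at 19.4 ± 1.88, and Kcnip2 had rank 6, at 7.98 ± 2.06. Kcnk6 (5.27 ± 0.259), Kcne4 (4.94 ± 0.595), Kcnab2 (4.68 ± 0.252), Kcnk13 (4.39 ± 0.229) and Kcnn4 (3.84 ± 0.638) were all among the 14 most abundant at 72 h; in sham these 5 ranked 19, 21, 31, 35 and 47. These ranks depend on the annotated length, which is not the length of the isoform expressed.

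Because cardiomyocyte marker RNA fell with time, the same counts were also scaled to the summed counts of the 10 cardiomyocyte markers. This asks whether a channel gene fell more or less than those markers, and the all-gene median on this scale was 0.87 for 24 h and 1.92 for 72 h. At 72 h, 3 of 57 genes were called lower than sham on this scale (0.913% of all genes) and 36 higher (89.8% of all genes). The 3 that fell by more than the markers were Kcnv2 (a log2 fold change of -1.72, SE 0.41, adjusted p = 5.39e-04), Kcnip2 (a log2 fold change of -1.04, SE 0.18, adjusted p = 2.23e-05) and Kcnj3 (a log2 fold change of -0.48, SE 0.17, adjusted p = 0.0138). At 24 h, 3 were lower (1.79% of all genes) and 20 higher (70.5%): Kcnip2 (a log2 fold change of -1.21, SE 0.19, adjusted p = 2.43e-05), Kcnv2 (log2 fold change -1.11) and Kcne1 (-0.81) fell by more than the markers. At 6 h, Kcnj5 (-1.37), Kcnk2 (-1.17), Kcnj14 (-1.06), Kcnj3 (-1.03), Kcnj11 (-0.79), Kcnn2 (-0.75) and Kcnq1 (-0.57) were called lower on this scale. Those called higher at 6 h were Kcnh1 (2.55), Kcne4 (2.48), Kcnk1 (1.61), Kcnk13 (1.48), Kcnn3 (1.11) and Kcna5 (0.73). Of the 28 genes called lower under TMM scaling at 72 h, 17 were not called on this scale. Among the 17 were Kcnj5 (-0.06), Kcnj11 (-0.22), Kcnn2 (-0.10), Kcnd3 (0.07), Kcna5 (0.10) and Kcnh2 (0.25). Kcnt1 (-0.98, SE 0.52, adjusted p = 0.0784) and Kcnc4 (-0.79, SE 0.86) were also among them, with larger fitted falls than Kcnj3. A p that misses the threshold does not show that the 17 genes and the markers moved alike. Kcnk3 (a log2 fold change of 0.45, SE 0.12, adjusted p = 0.00173), Kcnj2 (log2 fold change 0.58), Kcng2 (0.82), Kcnq1 (0.86) and Kcna4 (0.93), all lower under TMM scaling, were among the 8 called higher on this scale, that is, they fell by less than the markers. The markers are themselves genes that may change within a cardiomyocyte, so this scale is not a count of cells.

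**Figure D4:**
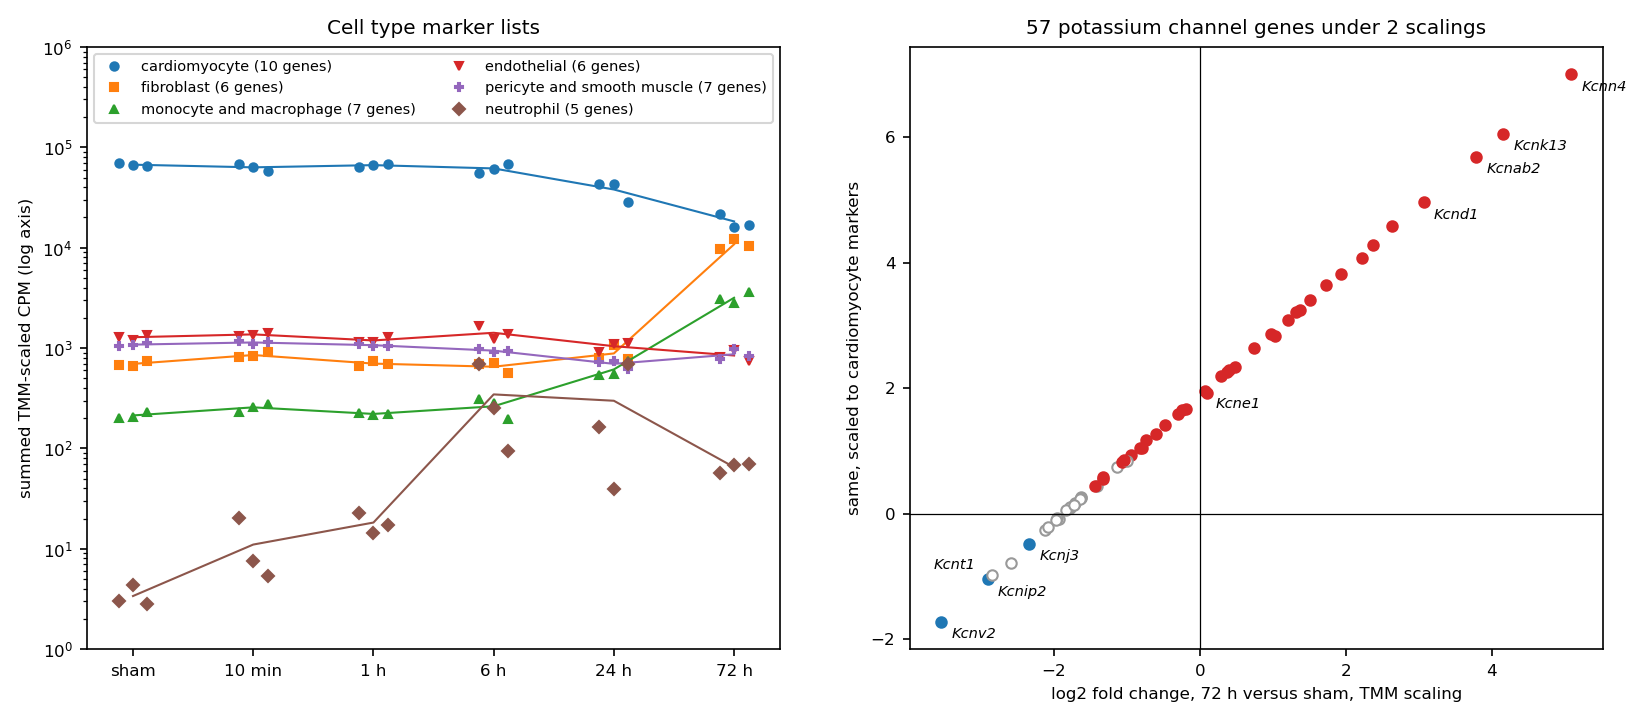
Left: summed TMM-scaled CPM (log axis) of 6 lists of cell type markers by group, with 1 point per library and lines through the means. Right: log2 fold change of the 57 potassium channel genes at 72 h against sham under TMM scaling (x axis) and scaled to the 10 cardiomyocyte markers (y axis); red points were called higher and blue points lower on the second scale, open points were not called. Only Kcnv2, Kcnip2 and Kcnj3 are blue, below 0 on both axes.

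Other genes of the pathway were read from lists, with the shares of all genes called given above. Of 9 channel partners tested, 1 fell and 3 rose at 6 h, 3 fell and 2 rose at 24 h, and 7 fell and 1 rose at 72 h. The sulphonylurea receptors that pair with Kcnj11 and Kcnj8 fell: Abcc9 measured 364, 349.6 and 334 CPM in sham and 85.9, 80.3 and 67.4 CPM at 72 h (a log2 fold change of -2.17, SE 0.18, adjusted p = 1.13e-08), and Abcc8 fell too (log2 fold change -1.82). The scaffold gene Cav3 fell at 72 h (log2 fold change -0.89) after having been called higher at 6 h (0.57), and the scaffold Dlg4 rose (1.70). Of 9 transcription factors known to act on cardiac potassium channel genes, 2 fell and 2 rose at 6 h, 3 fell and 1 rose at 24 h, and 8 fell and 1 rose at 72 h. Klf15, an activator of Kcnip2, measured 47.4, 59.3 and 51.9 CPM in sham, 52.5, 28.5 and 21.04 CPM at 24 h and 12.4, 7.86 and 9.99 CPM at 72 h (a log2 fold change of -2.39, SE 0.33, adjusted p = 1.44e-05). Its 24 h change was -0.63, SE 0.31 and was not called, while Kcnip2 was called lower at 24 h. The Iroquois factors Irx3, Irx4 and Irx5 fell, with log2 fold changes of -1.13, -1.66 and -1.15, as did Tbx5 (-1.90), while Rest, a repressor, rose (0.72).

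The sodium-potassium pump, which returns potassium to the cell, split: of 9 genes 2 fell and 4 rose at 6 h, 3 fell and 4 rose at 24 h, and 5 fell and 4 rose at 72 h. The regulator Fxyd1, or phospholemman, fell from 447, 419.9 and 401 CPM in sham to 194, 141 and 145 CPM (a log2 fold change of -1.40, SE 0.15, adjusted p = 1.27e-07). Fxyd5, another regulator, rose from 12.7, 11.98 and 13.8 CPM to 90.5, 94.5 and 94.8 CPM (a log2 fold change of 2.86, SE 0.26, adjusted p = 1.05e-07). At 72 h, 3 of 4 genes of cation-chloride cotransport fell and 0 rose, with the largest fall in Slc12a7 (-1.05). At 6 h and at 24 h, 2 of these 4 fell and 1 rose. Of 3 HCN pacemaker channel genes, 0 fell and 1 rose at 6 h, and 2 fell and 0 rose at 24 h. At 72 h, 2 of the 3 fell, Hcn4 (-1.77) and Hcn2 (-1.55), and 0 rose. The 4 conduction system markers, of which Hcn4 is itself 1, summed to 38.4 to 43.9 CPM in sham and 13.05 to 15.7 CPM at 72 h. Since the sum contains Hcn4, it is not a separate measure beside that gene. At 72 h, 3 of the 4 were called lower and 1 higher (all genes: 32.2% lower, 34.2% higher). The part of conduction cells in the level of Hcn4 was not tested.

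Clock genes were read beside the channels because Klf15 and Kcnip2 are known to follow the clock and the labels give no time of day. Of 16 clock genes, 1 rose and 1 fell at 10 min, and 5 rose and 5 fell at 6 h. At 24 h 3 rose and 8 fell, and at 72 h 3 rose and 11 fell. Of all genes, 0.0736% were called in either direction at 10 min. The shares higher and lower were 16.3% and 12.2% at 6 h, 23.7% and 20.2% at 24 h, and 34.2% and 32.2% at 72 h. Arntl measured 1.42, 1.04 and 1.02 CPM in sham, 13.1, 7.52 and 9.21 CPM at 10 min, 2.66, 1.01 and 1.34 CPM at 1 h and 7.27, 3.83 and 5.86 CPM at 6 h. It then measured 3.54, 1.63 and 5.41 CPM at 24 h and 24.1, 22.9 and 20.01 CPM at 72 h. It was above sham in all libraries and called at 10 min (a log2 fold change of 3.09, SE 0.41, adjusted p = 0.0124), 6 h, 24 h and 72 h, and overlapped sham at 1 h. Dbp measured 128, 128 and 119 CPM in sham, 45.6, 79.99 and 80.03 CPM at 10 min, 40.3, 91.3 and 135 CPM at 1 h and 35.3, 46.4 and 36.6 CPM at 6 h. It then measured 37.7, 64.8 and 29.96 CPM at 24 h and 7.26, 3.75 and 6.78 CPM at 72 h. It was called lower from 6 h on and lay below sham in all libraries at 10 min without a call (adjusted p = 0.697). Their part in the changes of the channel genes was not tested.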

How the data were processed

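Poly(A) RNA from the left ventricle of 18 mice (6 groups of 3) was read. Per the submitters' processing notes, reads were trimmed with cutadapt 1.18, aligned to mm10 with HISAT2 2.1.0 and counted per gene with featureCounts; libraries were made by random priming and PCR, per the labels' protocols. Strand setting and treatment of reads with several matches are not given in the sources used here. The authors deposited whole-number counts per gene and FPKM values beside them. The FPKM of replicates 2 and 3 at 6 h each match the other's counts, within 1 group.

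Counts were tested with edgeR 4.0.16 (quasi-likelihood, robust, TMM scaling, 1 mean per group, all 18 libraries) on the 16311 genes that passed filterByExpr, two-sided, with Benjamini-Hochberg adjustment over all of them; 14272 genes were filtered out. Scripts were tested on simulated data. Alternatives used DESeq2 1.42.0, limma 3.58.1 on log2(FPKM + 1) and log2(FPKM + 0.1) of the deposited FPKM, other scalings, filters and thresholds, a replicate block, and each library left out. With 3 mice per group, p-values rest on the spread between mice. Totals were 18199172 to 25062351 counts; no molecular identifiers were used, so counts are not independent molecules.

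Genes got values in each library if they carry a classical cardiac or leukocyte potassium current, or were among the 5 largest rises or falls at 6, 24 or 72 h among those called with groups that do not overlap and a mean count of 50 or more. Further genes were named after their values were seen; the values of a few genes are not reported here, though counts over all 57 tested include them. The genes, lists and motifs were chosen with earlier results of these data known. Coordinates are GENCODE M21 on mm10, promoters are RefSeq GRCm38.p6; 53 of the 58 gene lengths implied by FPKM equal the summed exons of that annotation.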

Additional observations from a re-analysis of the deposited data

Results flagged for a closer look

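Kcnj14 and Kcnk2 were the 2 of the 57 genes tested that were called against sham in opposite directions at different times. The share of all genes with such calls is not given here. Kcnj14, an inward rectifier of low abundance, measured 1.16, 1.24 and 1.15 CPM in sham, 0.596, 0.670 and 0.266 CPM at 6 h, 2.11, 1.59 and 1.24 CPM at 24 h and 2.93, 2.16 and 3.15 CPM at 72 h. All 6 h libraries lay below sham (a log2 fold change of -1.20, SE 0.32, adjusted p = 0.0095) and all 72 h libraries above it (a log2 fold change of 1.21, SE 0.26, adjusted p = 5.53e-04). The direct comparison of 72 h with 6 h gave a log2 fold change of 2.41, SE 0.30, adjusted p = 1.21e-06. Both genes were picked for opposite calls at these times, so this difference follows from the choice and adds no separate evidence.

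Kcnk2, the mechanosensitive tandem-pore channel TREK, measured 2.93, 2.18 and 2.89 CPM in sham, 4.54, 3.02 and 3.61 CPM at 1 h, 1.37, 1.00 and 0.852 CPM at 6 h, 2.37, 3.11 and 1.34 CPM at 24 h and 4.61, 4.84 and 4.01 CPM at 72 h. The 6 h libraries lay below sham (a log2 fold change of -1.32, SE 0.29, adjusted p = 0.00233) and the 72 h libraries above it (a log2 fold change of 0.75, SE 0.25, adjusted p = 0.0127), a call lost without sham replicate 2 (adjusted p = 0.0625). The direct comparison of 72 h with 6 h, which follows from the same choice, gave a log2 fold change of 2.06, SE 0.28, adjusted p = 3.06e-06. Its exons share 604 bases with a gene on the other strand. Fibroblast markers summed to 563 to 703 CPM at 6 h and 9779.8 to 12322 CPM at 72 h; their part in either rise was not tested.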

How the results depend on the processing

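Counts of genes called moved by over 1.5 times under some alternatives. Fitting only the 2 groups compared gave 2 genes at 10 min, 3 at 1 h and 9 from 6 h to 24 h, and DESeq2 gave 1 at 10 min. At an adjusted p under 0.01, 8 were called at 6 h, 20 at 24 h and 9 from 1 h to 6 h. Scaling to cardiomyocyte markers gave 11 from 1 h to 6 h. With 1 library left out, counts ran from 0 to 0 for both early times, 9 to 20 at 6 h, 24 to 33 at 24 h, 40 to 43 at 72 h, 10 to 20 from 1 h to 6 h, 16 to 24 from 6 h to 24 h and 33 to 41 from 24 h to 72 h. Leaving out a library ended, among the 54 genes whose values are reported here, the call of 8 of 16 genes at 6 h, 13 of 31 at 24 h and 4 of 39 at 72 h in at least 1 of the 18 fits; 1 library decides the size of Kcnc4 at 72 h (-5.90 without replicate 2). Shared replicate numbers gave no clear sign that the mice were paired. Over 45 pairs with the same number the correlation of deviations ran from -0.26 to 0.25. The median was 0.035, against -0.013 for the other pairs, and 4 of the 45 were over 0.1. With 3 mice per group this check cannot exclude pairing. With the replicate number as a block, 0 genes were called at 10 min and 1 h, 16 at 6 h, 29 at 24 h, 43 at 72 h, 17 from 1 h to 6 h, 23 from 6 h to 24 h and 39 from 24 h to 72 h.

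All 25 called values of these genes that changed sign did so when libraries were scaled to cardiomyocyte markers. At 24 h the log2 fold changes on that scale were Kcna5 0.22, Kcna6 0.020, Kcna7 0.19, Kcnd3 0.17, Kcnh2 0.046, Kcnj2 0.48, Kcnj5 0.27, Kcnj8 0.14, Kcnk3 0.35 and Kcnt2 0.082. At 72 h they were Kcna1 1.17, Kcna2 0.27, Kcna4 0.93, Kcna5 0.10, Kcna6 0.75, Kcnd2 0.44, Kcnd3 0.066, Kcng2 0.82, Kcnh2 0.25, Kcnj12 0.17, Kcnj2 0.58, Kcnj8 0.23, Kcnk3 0.45, Kcnn1 0.13 and Kcnq1 0.86. Of the other values under alternatives, 205 lost the call and 90 gained it without a change of sign. The remaining 4147 kept direction and side of the threshold, or were uncalled values that changed sign, some of them then called. Kcnip3 at 72 h, for example, was lower without a call under TMM scaling. Scaled to cardiomyocyte markers it had a log2 fold change of 1.59 (edgeR adjusted p = 4.95e-05). The cause of these changes was not tested, beyond that leaving out a library, or fitting 2 groups, uses fewer samples. Depth limits genes under about 1 CPM.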

Other observations

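The 33 potassium channel genes under a mean of 5 counts included Kcnma1, the pore of the large-conductance calcium-activated channel, with a mean of 3.11 counts and at most 10 in a library, and Kcne2, with a mean of 0.111 and at most 1 count. The highest count of any of the 33 in any library was 14, and 0 of them were at 0 in every library. Kcnj4, which passed the mean but not the filter for testing, measured 0.152, 0.104 and 0.222 CPM in sham and 0.284, 0.213 and 0.191 CPM at 72 h, with overlap between the groups.

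Kcnh1, whose 3 sham libraries were the lowest of all, measured 0.311, 0.420 and 0.670 CPM at 10 min and 0.435, 0.533 and 0.700 CPM at 1 h, all above sham (0.152, 0.104 and 0.133 CPM). Neither time was called (adjusted p = 0.466 at 10 min and 0.323 at 1 h), although Kcnh1 was called at 6, 24 and 72 h. Kcnt2, a sodium-activated pore, was lower at 24 h and had 72 h libraries above all sham libraries (4.25, 3.27 and 3.95 CPM in sham, 5.65, 4.93 and 4.33 CPM at 72 h; a log2 fold change of 0.38, SE 0.21, adjusted p = 0.127).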
